A study of Mus musculus with 16 samples.

Results

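YAP (gene Yap1), TAZ (gene Wwtr1) and 8 genes that act with them or respond to them were followed in mouse brain microvascular endothelial cells (mBMEC). The 10 genes are listed by a role that need not be their only one. They are the co-activators Yap1 and Wwtr1, their DNA-binding partner Tead1, the upstream regulators Lats2, Ajuba, Amotl1 and Amotl2, and targets Ankrd1, Ccn1 and Ccn2. They were taken by name, with earlier results of these data known, and the estimated read counts of all transcripts of a gene were summed. All 10 of them were among the 14838 genes with enough counts to be tested, out of 54193 genes in the files.

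YAP and TAZ carry no DNA-binding domain of their own and switch genes on by binding TEAD factors in the nucleus. Kinases of the Hippo pathway, LATS1 and LATS2 last in the chain, phosphorylate both proteins and keep them in the cytoplasm, so most of this control acts on the proteins and not on the mRNA of Yap1 or Wwtr1. In endothelial cells YAP and TAZ respond to stretch, flow and the actin cytoskeleton and take part in vessel sprouting and barrier maturation.

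The cells came from the brains of adult mice aged 8 to 10 weeks, with the genotype Cdh5(PAC)-CreERT2/Pdcd10 fl/fl, in which Cre is driven by the endothelial Cdh5 promoter and is active only with tamoxifen. Cultures, each from pooled brains and selected with puromycin, were either given 4-hydroxytamoxifen to delete Pdcd10, also named Ccm3 (KO), or left without it (WT), so all 6 groups carry the floxed alleles and the Cre, and deletion and tamoxifen exposure cannot be told apart. PDCD10 is a subunit of the STRIPAK phosphatase complex, and its loss causes cerebral cavernous malformations. Cells were untreated (3 WT and 3 KO libraries), treated for 24 h with 10 µM propranolol, a beta-adrenergic receptor blocker (2 WT+P and 3 KO+P), or for 24 h with 100 nM rapamycin, an mTORC1 inhibitor (2 WT+R and 3 KO+R).

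The 16 libraries held 18.83 M to 26.2 M estimated counts. Pdcd10 was at 11.5, 31.2 and 47.0 CPM (counts-per-million after TMM scaling) in WT replicates 1, 2 and 3, and at 9.72, 11.0 and 9.73 CPM in the KO libraries. The library labelled WT replicate 1 therefore lay near the KO level, against its label. For the comparisons that use WT libraries, member calls by edgeR with no block are given with and without it, as are most of the fold changes printed there. DESeq2 was run with all libraries only, and some calls with a replicate block are given with all libraries only. All 8 endothelial markers examined exceeded a mean of 10 CPM and summed to 6200 to 13000 CPM per library, whereas 7 mural markers summed to at most 16.6 CPM, 6 fibroblast markers to 4.79 to 202 CPM and 4 astrocyte markers to at most 7.54 CPM. Microglia and macrophage markers summed to at most 0.981 CPM, oligodendrocyte markers to at most 2.04 CPM and neuron markers to at most 28.5 CPM. In bulk RNA, a change in the share of cells that express a gene and a change in RNA per cell cannot be told apart.

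YAP and TAZ reach DNA through TEAD factors, whose sites can lie in promoters, and sites outside promoters were not searched. Promoter sequences are shown for the 4 members that passed the rapamycin test given further on and have an entry in the RefSeq promoter table. They are in build GRCm38.p6, an older build than the GRCm39 of the files. Each is the 250 bases before the annotated start, written 5′ to 3′ on the strand of the gene, with the core TEAD motif GGAATG, or its reverse complement CATTCC, in capitals. Ccn1 lies at chr3:145649986-145650235 on the minus strand, Ankrd1 at chr19:36119845-36120094 on the minus strand, Amotl2 at chr9:102717554-102717803 on the plus strand and Ajuba at chr14:54577662-54577911 on the minus strand.
Ccn1: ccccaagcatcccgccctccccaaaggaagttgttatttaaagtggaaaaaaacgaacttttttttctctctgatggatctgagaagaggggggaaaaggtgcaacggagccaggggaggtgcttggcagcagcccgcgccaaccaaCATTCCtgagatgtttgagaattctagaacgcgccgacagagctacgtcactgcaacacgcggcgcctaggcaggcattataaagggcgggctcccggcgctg
Ankrd1: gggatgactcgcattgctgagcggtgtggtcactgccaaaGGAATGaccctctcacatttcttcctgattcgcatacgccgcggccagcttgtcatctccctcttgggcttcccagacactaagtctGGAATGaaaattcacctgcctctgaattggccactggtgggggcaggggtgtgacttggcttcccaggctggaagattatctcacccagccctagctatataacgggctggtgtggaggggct
Amotl2: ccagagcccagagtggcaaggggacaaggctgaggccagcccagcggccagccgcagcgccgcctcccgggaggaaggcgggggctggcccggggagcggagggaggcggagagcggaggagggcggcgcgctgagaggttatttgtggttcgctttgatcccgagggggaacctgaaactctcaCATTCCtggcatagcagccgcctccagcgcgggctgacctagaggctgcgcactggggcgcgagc
Ajuba: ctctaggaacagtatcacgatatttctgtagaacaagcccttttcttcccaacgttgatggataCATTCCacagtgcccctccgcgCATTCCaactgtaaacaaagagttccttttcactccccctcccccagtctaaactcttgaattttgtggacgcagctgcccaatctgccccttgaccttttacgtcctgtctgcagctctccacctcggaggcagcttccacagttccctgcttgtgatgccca

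Counted from the start, the motif stood at -103 to -98 in Ccn1, at -210 to -205 and -123 to -118 in Ankrd1, at -65 to -60 in Amotl2 and at -186 to -181 and -164 to -159 in Ajuba. The table had 10 promoters for 8 of the 10 members, a pair each for Wwtr1 and Lats2 and none for Ccn2 or Tead1. On either strand of windows running from 250 bases before to 50 bases after the start, GGAATG was found in 8 of these 10 promoters, against 14.7% of all 32851 promoters of the table. The Wwtr1 windows overlap and share the same match, which is counted for both. Counted by gene, with a match in any of its promoters, that is 7 of 8 members (Amotl1 was the exception), against 16.6% of 27025 genes. In Lats2 the match was in 1 of its promoters and lay just after the start. An AP-1 site, TGANTCA, was in none of the 10 and in 7.8% of all promoters, and a CArG box, the site of serum response factor, was in none of the 10 and in 1.6% of all promoters. None of the 3 motifs overlaps another. A match is a run of letters and not a shown binding site.

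In the genome of the files (GRCm39), Yap1 lies on chromosome 9 from 7932000 to 8004661, Wwtr1 on chromosome 3 from 57363067 to 57483331 and Tead1 on chromosome 7 from 112278522 to 112506014. Lats2 lies on chromosome 14 from 57926960 to 57995845, Ajuba on chromosome 14 from 54804787 to 54815027, Amotl1 on chromosome 9 from 14453262 to 14556352 and Amotl2 on chromosome 9 from 102593836 to 102610617. Ankrd1 lies on chromosome 19 from 36089352 to 36097506, Ccn1 on chromosome 3 from 145352720 to 145355738 and Ccn2 on chromosome 10 from 24471333 to 24474900. Exons of annotated genes on the other strand cover 23.0% of the exonic bases of Ccn1 (Gm17501) and 36.5% of those of Ccn2 (Gm15270), and the libraries do not mark strand. Others cover 24.3% for Ankrd1 (Gm56671), 1.2% for Yap1 (Gm20416) and 2.2% for Lats2 (Gm63514). Gm56671 and Gm20416 held 0.0 counts in every library, and Gm63514 had no count value. Gm17501 held 33.0 to 504 counts per library and Gm15270 6.3 to 38.1 counts, against a mean of 26250 counts for Ccn1 and 59630 for Ccn2. For Lats2, 28.2% of exonic bases are shared with Gm49361 on the same strand, which held at most 1.5 counts.

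Per length, the targets Ccn2 and Ccn1 were the most abundant of the 10 and Yap1 and Tead1 the least. In untreated WT cells Ccn2, a secreted matricellular protein, was at 1280 ± 218 TPM (transcripts-per-million, SD, n = 3), and Ccn1, another member of the same family, was at 834 ± 90.6 TPM. Amotl2 (153 ± 35.1 TPM), Wwtr1 (150 ± 14.2 TPM), Ankrd1 (104 ± 30.0 TPM), Ajuba (87.4 ± 14.1 TPM) and Lats2 (73.6 ± 9.52 TPM) followed, and Amotl1 (36.3 ± 4.45 TPM), Yap1 (27.0 ± 3.22 TPM) and Tead1 (15.7 ± 2.91 TPM) were lowest. In this order the ranges of the 3 WT libraries overlapped between Amotl2 and Wwtr1, between Ankrd1 and Ajuba and between Ajuba and Lats2, and stood apart between the other neighbours. Averaged over the 16 libraries, Ccn2 ranked 77 and Ccn1 172 among 27253 genes with a TPM above 0, whereas Wwtr1 ranked 970 and Yap1 4828.

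**Figure D1:**
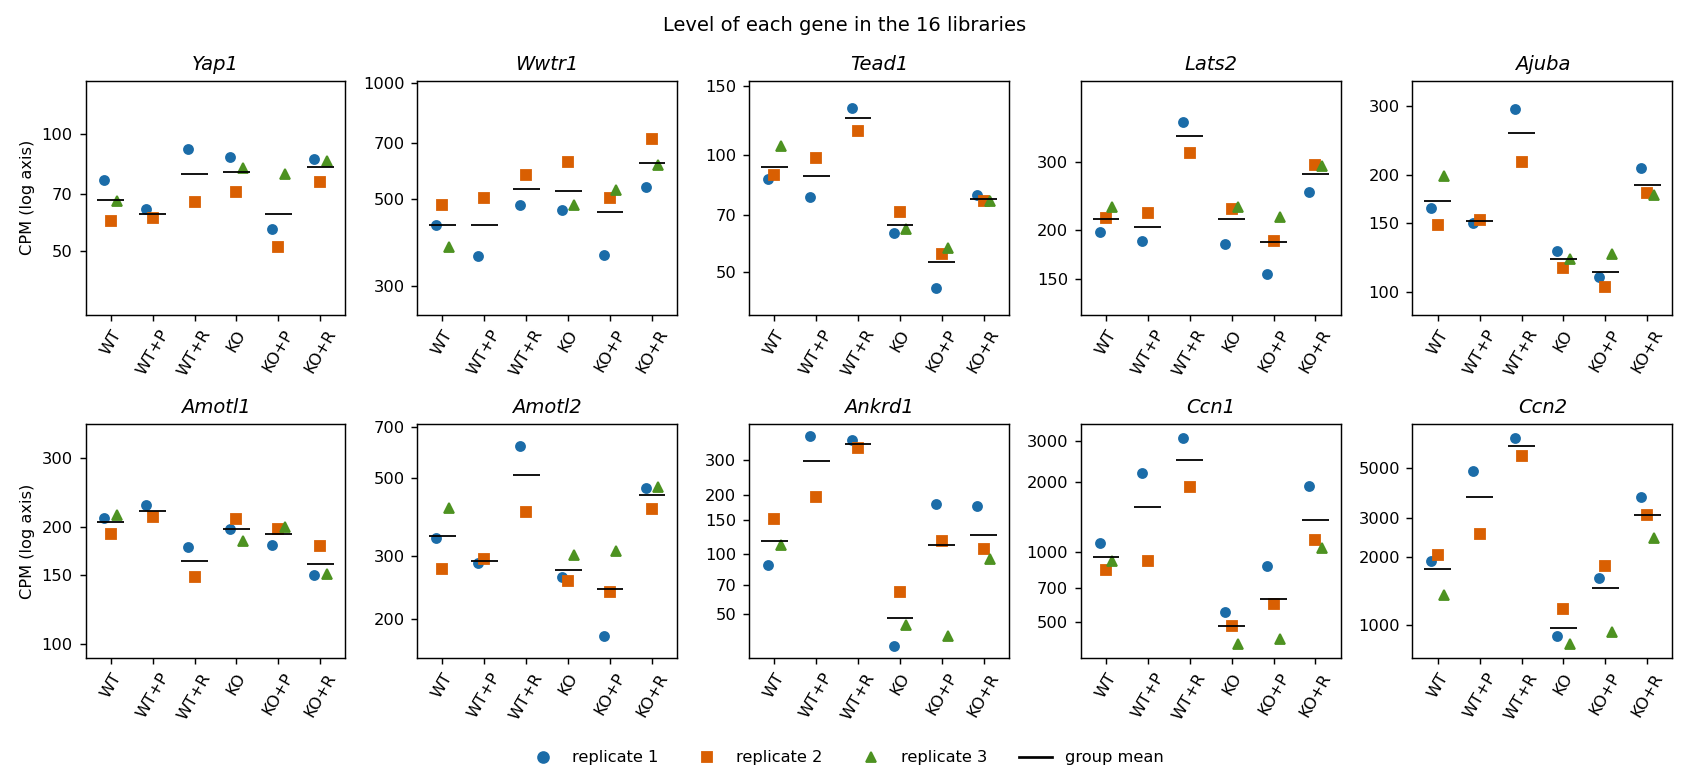
Level of the 10 genes in each of the 16 libraries, in CPM on a log axis whose range differs by gene, with symbols for the replicate number and a bar for the group mean. Ccn2, Ccn1 and Ankrd1 were lower in every untreated KO than in every untreated WT library and higher with rapamycin than in the untreated libraries of the same genotype, while the Yap1 libraries overlapped in each of the 7 pairs of groups compared.

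Loss of Ccm3 was compared first, in untreated KO against untreated WT cells. Ccn2, Ccn1, Ankrd1, Tead1 and Ajuba were lower in every untreated KO than in every untreated WT library, but no member passed the test (adjusted p under 0.05 in edgeR's quasi-likelihood test with Benjamini-Hochberg adjustment over all tested genes, and a change of over 1.5-fold). At an unadjusted p under 0.05 there were 5 members (6.07% of all genes), and DESeq2 called 0 (0.511% of the genes with an adjusted p). With the replicate number as a block, edgeR also called 0 members (0.182% of all genes), whereas DESeq2 called 3 (2.78% of the genes with an adjusted p). They were Ankrd1 (adjusted p = 0.0318), Ccn1 (adjusted p = 8.86e-05) and Ccn2 (adjusted p = 0.00458), all lower in KO. Of all tested genes, 0.00674% passed in edgeR with no block, and the count was 0 members and 0% of all genes once the library labelled WT replicate 1 was left out. The 5 members whose KO and WT libraries did not overlap, all lower in KO, stand beside 13.2% of all tested genes without overlap in either direction. The median log2 fold change of the 10 members was -0.41, and that of all tested genes was -0.01.

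Ccn2 was at 1920, 2040 and 1350 CPM in WT replicates 1, 2 and 3 and at 892, 1170 and 816 CPM in KO replicates 1, 2 and 3. Every KO library was below every WT library, with a log2 fold change of -0.88 ± 0.30 (SE, adjusted p = 0.595). Ccn1 was at 1100, 841 and 919 CPM in WT and at 555, 482 and 404 CPM in KO (-0.99 ± 0.35, adjusted p = 0.62). Ankrd1, a nuclear and sarcomeric ankyrin-repeat protein that is among the most used readouts of YAP, had the largest difference of the 10. It was at 88.0, 152 and 111 CPM in WT and at 34.4, 64.6 and 43.9 CPM in KO (-1.30 ± 0.47, adjusted p = 0.62).

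Between libraries of the same replicate number, the KO library was lower than the WT library by similar amounts. The log2 difference was -1.35, -1.24 and -1.34 for Ankrd1, -0.98, -0.80 and -1.19 for Ccn1, and -1.11, -0.80 and -0.72 for Ccn2 in replicates 1, 2 and 3. For Pdcd10 itself it was -0.24, -1.5 and -2.26, so the libraries of the replicate 1 pair hardly differed in Pdcd10. Without the library labelled WT replicate 1, the fitted log2 fold changes were -1.48 for Ankrd1, -0.88 for Ccn1, -0.83 for Ccn2, -0.56 for Tead1 and -0.53 for Ajuba, with adjusted p of 0.41 to 0.853, and the other 5 members lay between -0.34 and 0.33. A blocked fit that left out that library gave -1.14 for Ccn1 with an adjusted p of 0.0479, and called no other member (0.445% of all genes).

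Among the factors, Tead1 was at 86.4, 88.6 and 105 CPM in WT and at 62.7, 71.0 and 64.3 CPM in KO, with no overlap (log2 fold change -0.50 ± 0.12, adjusted p = 0.39). Yap1 (0.24, 95% interval -0.12 to 0.60) and Wwtr1 (0.29, interval -0.13 to 0.70) had log2 fold changes above 0 with overlapping groups. Both were higher in KO in all 3 pairs of libraries of the same replicate number, by 0.20 to 0.28 for Yap1 and by 0.13 to 0.36 for Wwtr1.

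Of the regulators, Ajuba, a LIM protein that binds and restrains LATS kinases, was at 164, 148 and 199 CPM in WT and at 127, 115 and 121 CPM in KO, again with no overlap (-0.50 ± 0.14, adjusted p = 0.483). Lats2, the kinase, was at 214 ± 15.6 CPM in WT and 214 ± 26.1 CPM in KO (SD, n = 3), a log2 fold change of 0.00 with an interval of -0.31 to 0.31. The angiomotins hold YAP and TAZ at cell junctions and actin. Amotl1 (-0.06, interval -0.29 to 0.17) and Amotl2 (-0.33, interval -0.78 to 0.13) overlapped between the groups.

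**Figure D2:**
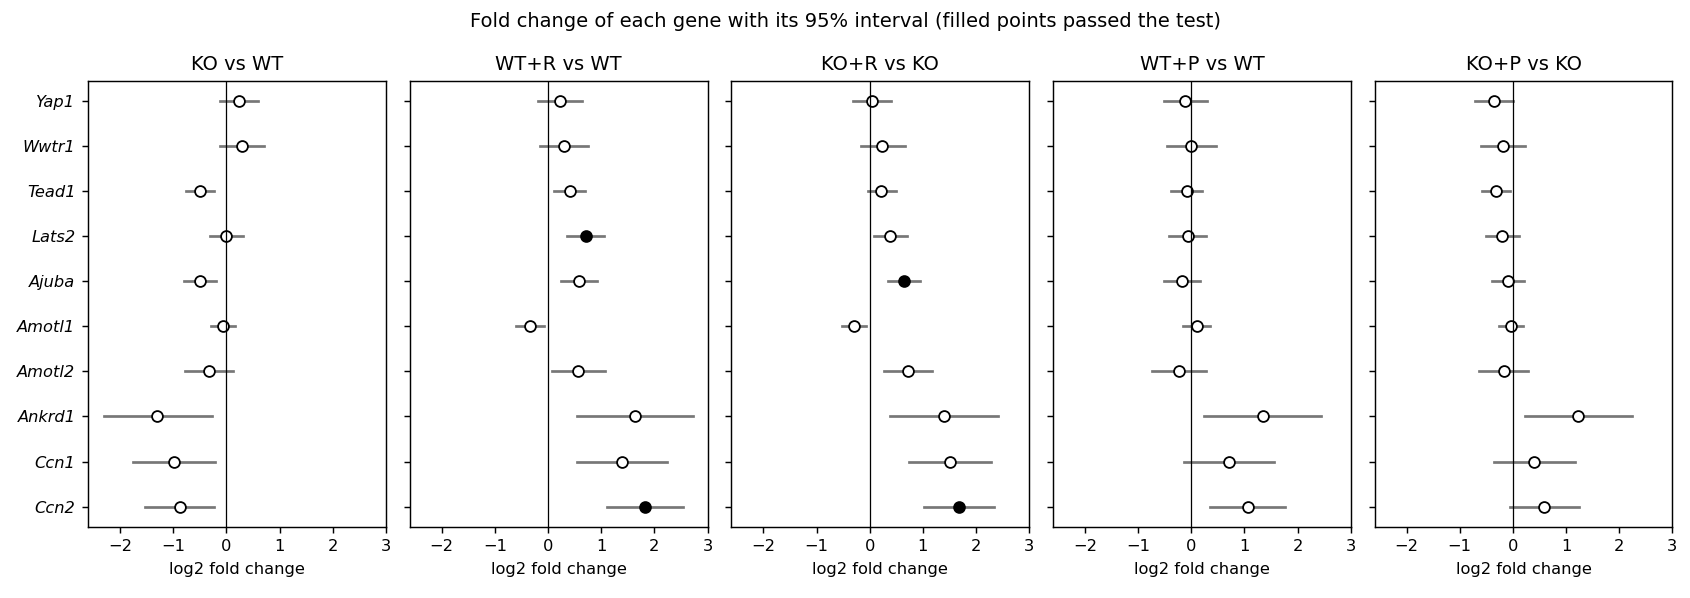
Log2 fold change of each member with its 95% interval in 5 comparisons, fitted by edgeR, with filled points for changes that passed the test. Ccn2 passed under rapamycin in both genotypes, and Yap1 and Wwtr1 passed in none of the 5.

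Rapamycin was examined next, in each genotype on its own. In WT cells Ccn2 rose 3.52-fold and Lats2 rose, and in KO cells Ccn2 rose 3.19-fold and Ajuba rose. That is 2 of 10 members called in each genotype, beside 1.4% of all tested genes in WT+R against WT and 1.51% in KO+R against KO. The groups of 7 members did not overlap in WT (6 higher and 1 lower with rapamycin, against 28.6% of all tested genes), and those of 8 members did not overlap in KO (7 higher and 1 lower, against 24.1%). With the replicate number as a block, 4 members were called in WT (4.56% of all genes) and 4 in KO (4.98% of all genes), all higher. A blocked fit without the library labelled WT replicate 1 called 3 in WT (2.73% of all genes). The 8 endothelial markers summed to 8650 to 9510 CPM in WT+R against 10000 to 13000 CPM in WT, without overlap, and to 9730 to 10900 CPM in KO+R against 10600 to 11500 CPM in KO, with overlap. Without the block none of the 8 passed in either genotype. At an unadjusted p under 0.05 there were 3 in WT (12.6% of all genes) and 0 in KO (12.5%). With the block 1 was called in WT, higher with rapamycin, and 0 in KO. Single markers went both ways, with log2 fold changes of -0.99 to 0.8 in WT (2 above 0) and -0.45 to 0.53 in KO (3 above 0). The markers' part in the members' values was not tested.

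In WT+R replicates 1 and 2, Ccn2 was at 6810 and 5650 CPM, above every untreated WT library, with a log2 fold change of 1.82 ± 0.33 (adjusted p = 0.0182). In KO+R replicates 1, 2 and 3 it was at 3690, 3070 and 2440 CPM, above every untreated KO library (1.68 ± 0.30, adjusted p = 0.0185). The KO+R libraries were also above all 3 untreated WT libraries. Without the library labelled WT replicate 1 the WT value was 1.88 with an adjusted p of 0.058, and no member then passed in WT+R against WT (0.627% of all genes did). No member passed there either without WT replicate 3 or without either WT+R library. In KO cells the count was also 0 without KO replicate 1, KO replicate 3, KO+R replicate 1 or KO+R replicate 2, one library at a time.

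Ccn1 was at 3090 and 1910 CPM in WT+R (log2 fold change 1.39 ± 0.39, adjusted p = 0.1) and at 1920, 1130 and 1040 CPM in KO+R (1.51 ± 0.36, adjusted p = 0.058). In both genotypes the treated libraries were all above the untreated ones, and with the replicate block both passed, with adjusted p of 0.00887 in WT and 0.0017 in KO. The WT value was 1.5 without the library labelled WT replicate 1 (adjusted p = 0.175), and 1.04 with the block as well (adjusted p = 0.0454). Adding the counts of the antisense gene Gm17501 to Ccn1 left these fold changes at 1.39 and 1.51. Ankrd1 was at 381 and 348 CPM in WT+R (1.64 ± 0.51, adjusted p = 0.15) and at 176, 106 and 94.6 CPM in KO+R (1.40 ± 0.47, adjusted p = 0.203). All treated libraries were again above the untreated ones of their genotype, and the WT value was 1.47 without the library labelled WT replicate 1 (adjusted p = 0.339).

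Averaged over both genotypes, 5 members rose with rapamycin, beside 5.29% of all tested genes in either direction. They were Ccn2 (log2 fold change 1.75 ± 0.22, adjusted p = 0.000663), Ankrd1 (1.52 ± 0.35, adjusted p = 0.0181), Ccn1 (1.45 ± 0.26, adjusted p = 0.00498), Amotl2 (0.65 ± 0.16, adjusted p = 0.0247) and Ajuba (0.61 ± 0.10, adjusted p = 0.00327). Without the library labelled WT replicate 1 the same 5 were called, with adjusted p of 0.00198 to 0.0473 (4.65% of all genes), and with the replicate block it was 6, Lats2 being the sixth (9.81% of all genes). The count was 3 without WT replicate 2 (4.51% of all genes), and lower still without WT+R replicate 1, which left a lone WT+R library. In the 5 pairs of treated and untreated libraries of the same genotype and number, which share 3 replicate numbers, Ccn2 was higher with rapamycin by 1.39 to 2.05 on the log2 scale.

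With rapamycin averaged over genotypes, Lats2, Ajuba, Amotl1 and Amotl2 differed less than Ankrd1, Ccn1 and Ccn2. Lats2 was at 381 and 317 CPM in WT+R against 198, 215 and 229 CPM in WT, and rose by 0.71 ± 0.16 on the log2 scale (adjusted p = 0.0469, and 0.137 without the library labelled WT replicate 1). In KO+R it was at 251, 294 and 292 CPM against 184, 227 and 230 CPM in KO, without overlap (0.39 ± 0.14, adjusted p = 0.261). Averaged over genotypes Lats2 had an adjusted p of 0.00769 and a log2 fold change of 0.55, under the 1.5-fold limit (0.53 and 0.0197 without the library labelled WT replicate 1).

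Ajuba was at 208, 179 and 177 CPM in KO+R, above the 115 to 127 CPM of KO, and rose by 0.64 ± 0.14 (adjusted p = 0.0382). In WT+R it was at 295 and 216 CPM (0.58 ± 0.15, adjusted p = 0.0817, and 0.55 with 0.211 without the library labelled WT replicate 1). Amotl2 was at 468, 408 and 472 CPM in KO+R, above the 255 to 303 CPM of KO (0.72 ± 0.21, adjusted p = 0.141, and 0.0255 with the replicate block). In WT+R, Amotl2 was at 618 and 402 CPM and overlapped the 276, 339 and 412 CPM of WT. Its paralogue Amotl1 differed the other way. Amotl1 was at 177 and 148 CPM in WT+R against 191 to 215 CPM in WT, and at 150, 178 and 151 CPM in KO+R against 184 to 209 CPM in KO, without overlap in either genotype. Averaged over genotypes its log2 fold change was -0.32 ± 0.08 (adjusted p = 0.0274, and 0.0592 without the library labelled WT replicate 1), under the 1.5-fold limit.

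The co-activators themselves passed in neither genotype. Yap1 was at 91.6 and 66.9 CPM in WT+R and at 86.5, 75.4 and 85.2 CPM in KO+R, within or close to the untreated ranges of 59.8 to 76.2 CPM in WT and 71.0 to 87.6 CPM in KO. Its log2 fold change averaged over genotypes was 0.13, with an interval of -0.14 to 0.40. Wwtr1 had 0.27 with an interval of -0.04 to 0.58. These values were 0.18 for Yap1 and 0.28 for Wwtr1 without the library labelled WT replicate 1. Tead1 was at 132 and 115 CPM in WT+R and at 78.9, 75.9 and 76.1 CPM in KO+R, above the untreated libraries of its genotype in both (averaged 0.31 ± 0.09, adjusted p = 0.0527, and 0.29 with 0.103 without the library labelled WT replicate 1).

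The response to rapamycin was not shown to differ between genotypes. In the test of the difference (KO response minus WT response) 0 members and 0% of all genes passed, with 113 of 14838 genes at an unadjusted p under 0.05 in edgeR, none of them a member. For Ccn2 the difference on the log2 scale was -0.14, with an interval of -1.10 to 0.82, and for Ccn1 it was 0.11, with an interval of -1.02 to 1.25. DESeq2 also called 0 members, as did edgeR without the library labelled WT replicate 1.

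**Figure D3:**
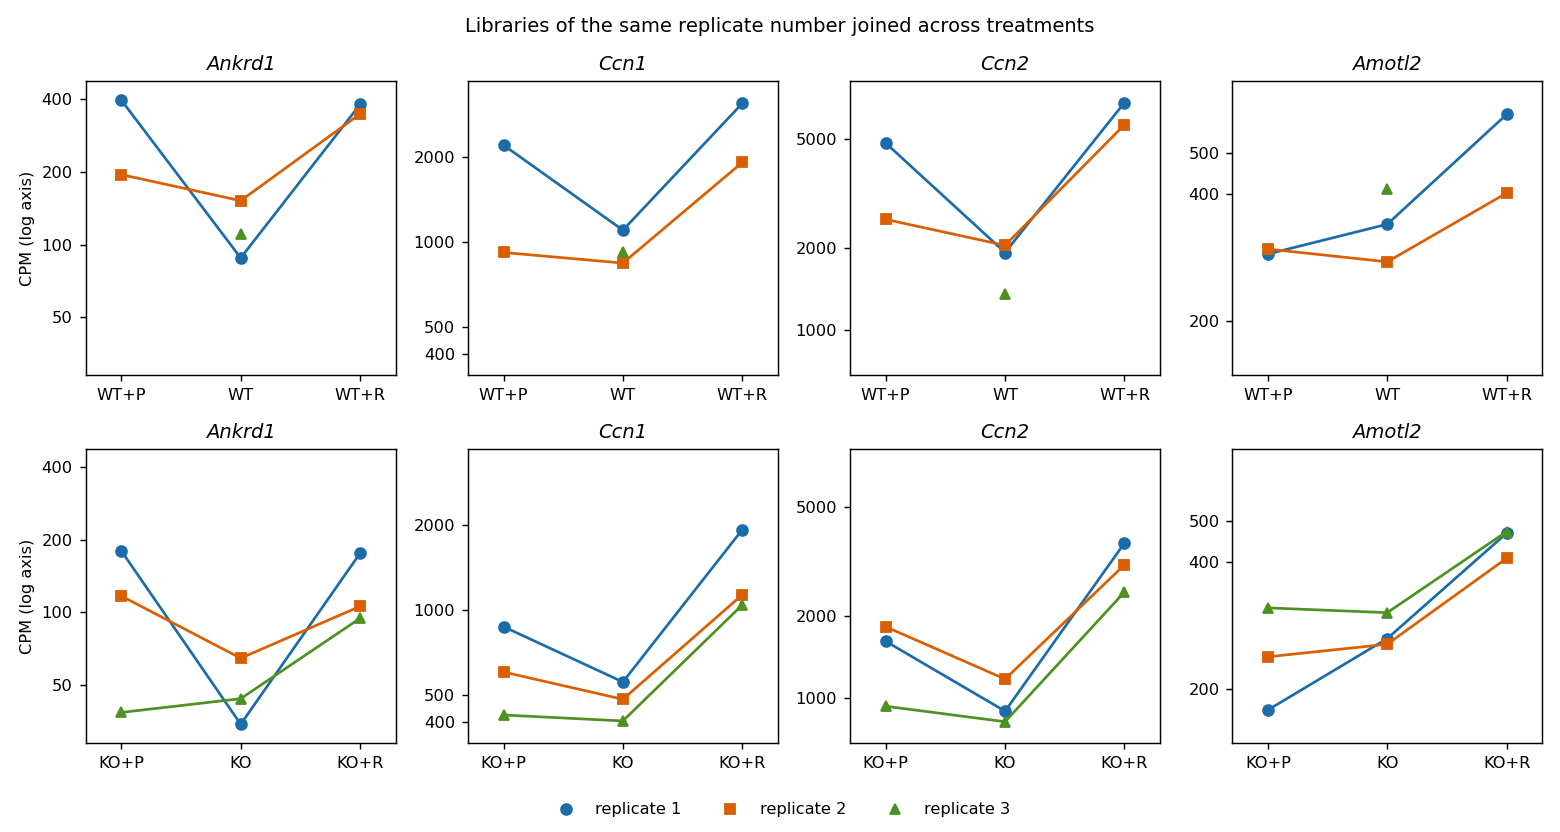
CPM of Ankrd1, Ccn1, Ccn2 and Amotl2 on a log axis, with lines joining libraries of the same replicate number from untreated cells (middle) to propranolol (left) and rapamycin (right), WT above and KO below. The rapamycin end lies above the untreated point in all 5 lines of each gene, whereas the propranolol end of replicate 3 stays near its untreated KO point.

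With propranolol, edgeR with all libraries and no block called no member in either genotype or on average, DESeq2 and fits with the replicate block called Ankrd1 or Ccn2 in some comparisons, and the response of the targets differed between replicates. In WT+P against WT, 0 members passed (0.00674% of all tested genes did), and in KO+P against KO also 0 (again 0.00674%). At an unadjusted p under 0.05 there were 2 members in each, beside 9.87% of all genes in WT and 12.6% in KO. DESeq2 called 0 in each (0.889% and 1.28% of the genes with an adjusted p). DESeq2 with the replicate block called Ccn2 in WT+P against WT (adjusted p = 0.0417, beside 1.06% of all genes). The groups of 2 members, Ankrd1 and Ccn2, did not overlap in WT, both higher with propranolol (21.2% of all genes did not overlap), and those of 1 member, Tead1, did not overlap in KO, lower with propranolol (18.7%). Averaged over genotypes edgeR called 0 members (1.58% of all genes), with 3 at an unadjusted p under 0.05, beside 22.1% of all genes. DESeq2 called 2, Ankrd1 and Ccn2 (6.52% of the genes with an adjusted p). The edgeR count was 1 with the replicate block, Ccn2, with an adjusted p of 0.0362 (4.19%), and 0 without the library labelled WT replicate 1 (0.378%). With both changes it was 0 (0.351%), and Ccn2 had a log2 fold change of 0.67 (adjusted p = 0.116). In WT+P against WT the count without that library was 0 members and 0% of all genes, with log2 fold changes of 1.16 for Ankrd1 and 1.12 for Ccn2 (adjusted p = 0.811 for both).

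Ankrd1 was at 397 and 195 CPM in WT+P replicates 1 and 2 (log2 fold change 1.34 ± 0.51, adjusted p = 0.475) and at 180, 117 and 38.5 CPM in KO+P replicates 1, 2 and 3 (1.23 ± 0.47, adjusted p = 0.349). KO+P replicate 3 lay inside the untreated KO range. Ccn2 was at 4840 and 2540 CPM in WT+P (1.06 ± 0.33, adjusted p = 0.397) and at 1610, 1820 and 930 CPM in KO+P (0.59 ± 0.30, adjusted p = 0.42). Ccn1 was at 2200 and 917 CPM in WT+P and at 871, 602 and 424 CPM in KO+P, overlapping the untreated libraries in both genotypes. For these 3 genes replicate 1 showed the largest difference from its own untreated library, 2.17 in WT and 2.39 in KO for Ankrd1 on the log2 scale.

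Without KO+P replicate 3, Ankrd1 was called in KO+P against KO (log2 fold change 1.64, adjusted p = 0.0437), beside 2.24% of all tested genes, and 2 members, Ankrd1 and Ccn2, were called in the average over genotypes, beside 6.99%. Leaving out WT+P replicate 2 left a lone WT+P library, so only fold changes are given. The log2 fold changes averaged over genotypes were then 1.5 for Ankrd1 and 1.02 for Ccn2. In WT+P against WT they were 1.76 for Ankrd1 and 1.45 for Ccn2. The 8 endothelial markers summed to 6200 to 9660 CPM in WT+P against 10000 to 13000 CPM in WT, and to 6620 to 9910 CPM in KO+P against 10600 to 11500 CPM in KO. The part of that difference in these values was not tested. The other 7 members had log2 fold changes between -0.24 and 0.03 on average over genotypes. In the test of the difference between genotypes, 0 members and 0% of all genes passed for propranolol, with 107 genes and no member at an unadjusted p under 0.05 in edgeR. DESeq2 called 0 members, as did edgeR without the library labelled WT replicate 1.

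The 2 drugs were compared directly in KO cells. KO+R stood above KO+P for Amotl2 (log2 fold change 0.89 ± 0.21, adjusted p = 0.0324), Ajuba (0.74 ± 0.14, adjusted p = 0.0118) and Lats2 (0.59 ± 0.14, adjusted p = 0.0362), 3 of 10 members beside 4.08% of all genes. The libraries of 8 members did not overlap, 7 higher and Amotl1 lower with rapamycin, against 25.5% of all genes. With the replicate block 5 members were called, Ccn1 and Ccn2 as well (9.62% of all genes). Without KO+P replicate 3 there were also 5, in this case Amotl2, Ajuba and Lats2 with Yap1 (0.60, adjusted p = 0.0316) and Tead1 (0.61, adjusted p = 0.0195), beside 7.92%. The count was 0 without KO+P replicate 1, KO+P replicate 2 or KO+R replicate 1. Ankrd1 did not separate the drugs, at 176, 106 and 94.6 CPM in KO+R against 180, 117 and 38.5 CPM in KO+P (0.17, interval -0.83 to 1.16).

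Against untreated WT cells, rapamycin-treated KO cells differed in no member by the test (2.51% of all genes passed), in none without the library labelled WT replicate 1 (1.58%), and in Ccn2 alone with the replicate block (6.91%, log2 fold change 0.79, adjusted p = 0.0372). In a blocked fit that also left out that library, Ccn2 did not pass (0.73, adjusted p = 0.112) and Wwtr1 was the only member called (0.64, adjusted p = 0.0159), beside 5.91% of all genes. At an unadjusted p under 0.05 there were 5 members in edgeR (16.1% of all genes), and DESeq2 called 0 (4.99% of the genes with an adjusted p). KO+R and WT did not overlap in 5 members, against 22.6% of all genes, with Wwtr1, Lats2 and Ccn2 higher and Tead1 and Amotl1 lower in KO+R. Ccn1 in KO+R had a log2 fold change of 0.52 with an interval of -0.24 to 1.28 against WT, and Ankrd1 one of 0.10 with an interval of -0.90 to 1.09. The values were 0.64 and -0.06 without the library labelled WT replicate 1. This comparison shares its KO+R libraries with the comparison to KO and its WT libraries with KO against WT. For Ankrd1 the 3 values side by side were -1.30 for KO against WT, 1.40 for KO+R against KO and 0.10 for KO+R against WT.

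Other genes of the pathway were read from lists chosen by role, with earlier results of these data known. Of 14 Hippo kinases and adaptors, which phosphorylate or scaffold LATS, none passed in KO against WT or under rapamycin in either genotype. With the replicate block 1 of them, Wwc2, was called under rapamycin in WT (0.69, adjusted p = 0.0171) and on average (0.61, adjusted p = 0.00143), and in the average also without the library labelled WT replicate 1 (0.60, adjusted p = 0.0105). Frmd6 (log2 fold change -0.67, adjusted p = 0.0408) and Taok2 (-0.59, adjusted p = 0.0464) fell with propranolol averaged over genotypes. Without the library labelled WT replicate 1 neither passed (adjusted p = 0.0973 for Frmd6 and 0.119 for Taok2), and with the replicate block Frmd6 alone did, since Taok2 at -0.56 was under the 1.5-fold limit. Map4k4 (0.99, adjusted p = 0.0258) and Wwc2 (0.72, adjusted p = 0.0151) were higher in KO+R than in KO+P, and with the replicate block 4 were, Frmd6 and Taok2 as well. Of 7 other TEAD factors and their VGLL cofactors, 5 were tested and none passed in any comparison. None of 7 further YAP and TAZ binding or junction proteins and none of 11 other STRIPAK subunits passed in any comparison, whether or not the fit was blocked or left out the library labelled WT replicate 1.

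A list of 17 other genes often used as a YAP and TAZ target signature moved in both directions. None passed in KO against WT, where 8 of the 17 had a log2 fold change above 0 and the median was -0.15. Averaged over genotypes, rapamycin called 1 up and 1 down, beside 5.29% of all tested genes (3 up and 2 down with the replicate block, beside 9.81%). Nuak2, a kinase that acts on the actin cytoskeleton, rose from 7.32, 14.8 and 12.2 CPM in WT to 87.0 and 46.0 CPM in WT+R, and from 7.90, 12.7 and 15.4 CPM in KO to 64.6, 36.5 and 31.3 CPM in KO+R (averaged 2.21 ± 0.27, adjusted p = 0.000455). Igfbp3, a secreted binder of insulin-like growth factors, fell from 1290, 378 and 1090 CPM in WT to 87.3 and 53.7 CPM in WT+R, and from 746, 151 and 310 CPM in KO to 81.4, 22.5 and 44.3 CPM in KO+R (averaged -3.37 ± 0.54, adjusted p = 0.00252). Both were also called in the average without the library labelled WT replicate 1 (2.10 for Nuak2 and -3.20 for Igfbp3). Propranolol averaged over genotypes called Ccdc80 (2.08, adjusted p = 0.0485), Nt5e (1.59, adjusted p = 0.0208) and Tgfb2 (1.00, adjusted p = 0.0432) up, and none of the 3 without the library labelled WT replicate 1 (adjusted p = 0.0643 to 0.119). Crim1 (1.10, adjusted p = 0.0179) and Nuak2 were higher and Nt5e was lower in KO+R than in KO+P.

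Of the 4 remaining CCN family genes, relatives of Ccn1 and Ccn2, 3 were tested. Ccn3 (also known as Nov) was at 11.5, 8.63 and 9.68 CPM in WT, 25 and 27.5 CPM in WT+R, 24.2, 20.3 and 31.4 CPM in KO and 70.8, 121 and 102 CPM in KO+R. It was higher in every KO than in every WT library, the other way from Ccn1 and Ccn2, without passing the test (1.35 ± 0.30, adjusted p = 0.333, and 1.46 with 0.404 without the library labelled WT replicate 1). With rapamycin it rose averaged over genotypes (1.68 ± 0.22, adjusted p = 0.000707) and in KO cells (1.95 ± 0.30, adjusted p = 0.00764). In WT cells the treated libraries were above all untreated ones (1.40 ± 0.32, adjusted p = 0.0516, and 0.0339 with the replicate block), and the 2 responses were not shown to differ (difference 0.54, interval -0.40 to 1.49). KO+R was above untreated WT (3.30 ± 0.32, adjusted p = 0.000445, and 3.42 with 0.00233 without the library labelled WT replicate 1).

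Serum response factor and its MRTF cofactors read the state of actin, and genes such as Ccn1, Ccn2 and Ankrd1 are known to answer to them as well as to YAP. Of the 12 genes in this list, Srf, Mrtfa and Mrtfb included, all 12 had a log2 fold change below 0 in KO against WT, with a median of -0.68 and none passing the test (median -0.58 and none without the library labelled WT replicate 1). Averaged over genotypes, rapamycin called 6 of the 12 up, beside 5.29% of all tested genes in either direction, with a median of 0.92 against -0.02 for all tested genes. This list too was chosen with earlier results of these data known, so its count is given as a description. The 6 were Acta2 (2.17 ± 0.42, adjusted p = 0.00682), Myl9 (1.96 ± 0.45, adjusted p = 0.0186), Vcl (1.11 ± 0.19, adjusted p = 0.00399), Cnn2 (0.95 ± 0.22, adjusted p = 0.0205), Fblim1 (0.88 ± 0.15, adjusted p = 0.0039) and Flna (0.59 ± 0.16, adjusted p = 0.0357), genes of smooth muscle actin, myosin light chain, focal adhesion and actin cross-linking. Without the library labelled WT replicate 1 the first 5 were called and Flna was not (0.63, adjusted p = 0.0531). In WT+R against WT, 3 passed (Acta2, Vcl and Fblim1), beside 1.4% of all genes. With the replicate block 8 did (4.56% of all genes). None did without the library labelled WT replicate 1 (0.627%), and 2 did with both changes (2.73%). In KO+R against KO none passed (1.51% of all genes), with a median of 0.79, and 4 did with the replicate block (4.98%). Against WT, KO+R had a median of 0.04 and no call.

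**Figure D4:**
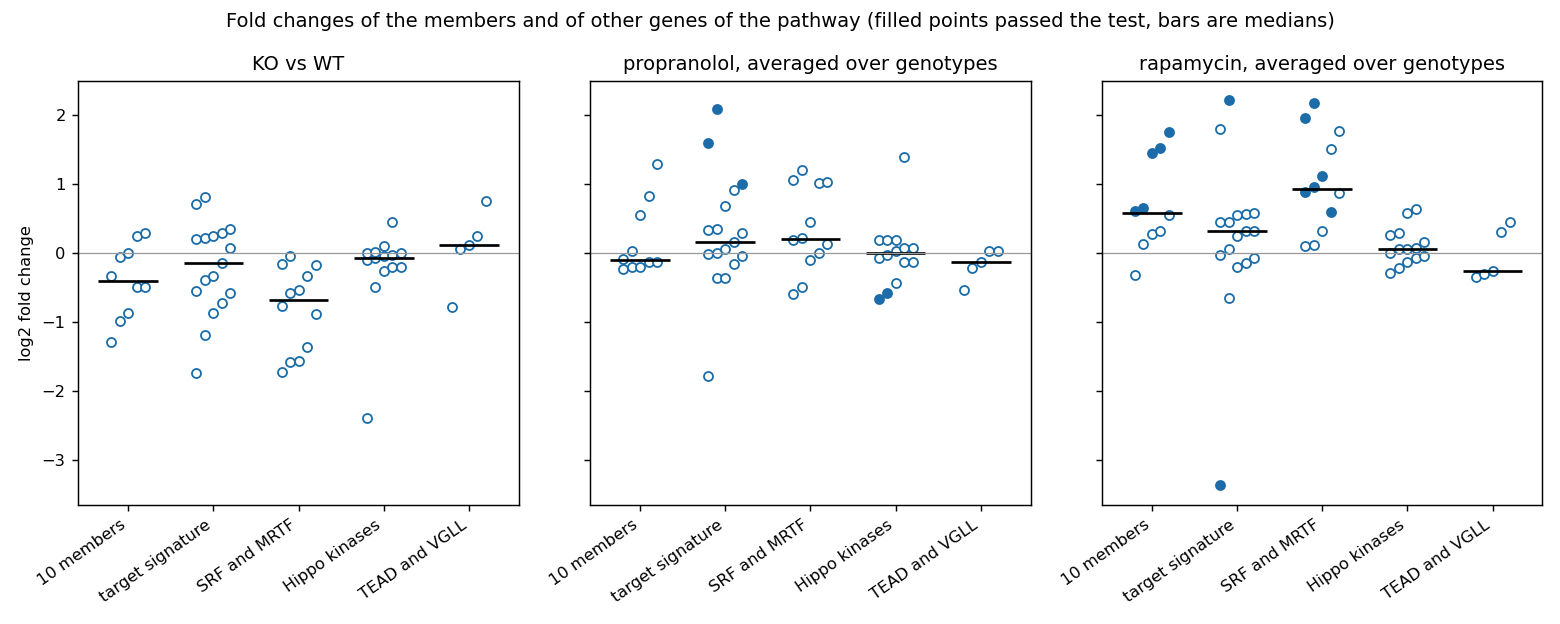
Log2 fold changes of the 10 members and of 4 lists of related genes in KO against WT and under each drug averaged over genotypes, each point a gene, filled where it passed the test, with a bar at the median. The SRF and MRTF list lies below 0 in KO and above 0 with rapamycin, with medians of -0.68 and 0.92, and the Hippo kinases centre near 0.

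Genes with the pattern most like 3 of the members were found by Pearson correlation of log2 CPM over the 16 libraries, over the 9044 genes that averaged 10 CPM or more. The libraries share replicate numbers and groups, so r is given as a description. For Ccn2 they were Picalm (r = 0.96), Ccn1 (0.95), Vcam1 (0.94), Lpar4 (0.93) and Tnk2 (0.92). For Ankrd1 they were Pdlim5 (0.95), Foxp4 (0.94), Lpar4 (0.93), Picalm (0.93) and Myl9 (0.92). For Yap1 they were Exoc3 (0.94), Zer1 (0.92), Zfp36l1 (0.91), Il6ra (0.91) and Zfp362 (0.90), none shared with the other 2 genes. Picalm ranged from 199 to 733 CPM and Vcam1 from 94.9 to 758 CPM, while Exoc3 ranged only from 31.2 to 47.1 CPM.

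In 6 of the members (Wwtr1, Lats2, Amotl1, Ankrd1, Ccn1 and Ccn2) the leading transcript took 89.04% or more of the gene's TPM on average, and the other 4 were split further. Yap1 reads were split between the coding transcripts Yap1-202 and Yap1-201, which took on average 52.66% and 45.74% of its TPM, and Amotl2 between Amotl2-203 (51.83%) and Amotl2-201 (42.1%). In WT+R, Yap1-202 averaged 66.4% and Yap1-201 32.38%. In the other groups the means were 50.1% to 52.36% and 44.63% to 48.98%. Tead1-202 took 62.07% of Tead1 TPM on average, from 45.66% to 86.12% across libraries, with Tead1-216 at 16.27% and Tead1-217 at 11.66%. A retained-intron transcript, Ajuba-202, took 15.05% of Ajuba TPM on average, from 2.49% to 39.14% across libraries. Its mean was 11.47% in WT, 15.43% in KO, 9.6% in WT+R, 17.66% in KO+R, 7.32% in WT+P and 24.41% in KO+P. These shares are estimates with no error in the files, and no test was made on them.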

How the data were processed

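Poly(A) RNA of mBMEC cultures was sequenced unstranded as 16 libraries. Per the file headers, the deposited files are Salmon quantifications that give, for each transcript, its estimated count, its effective length and its TPM. The authors' processing notes name Salmon 1.5.2, Trim Galore 0.6.7, HTSeq 0.13.5 and DESeq2 1.34.0 with build GRCm39, and the methods of the study describe an alignment and gene counting that are not in these files. Of 140789 transcripts, 99.12% were named from GENCODE M39. The counts were summed by gene and rounded, and the deposited TPM values were summed. The 10 genes and all gene lists were chosen with earlier results of these data known.

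Genes were filtered by edgeR's filterByExpr over 6 groups, scaled by TMM (factors 0.934 to 1.041) and fitted in 1 quasi-likelihood model (edgeR 4.0.16, R 4.3.3, 10 residual degrees of freedom, biological coefficient of variation 32.3%). A call needed an adjusted p under 0.05 and a change over 1.5-fold. Intervals are 95%. Averaged comparisons give each genotype equal weight. Alternatives were DESeq2 (1.42.0), its size factors, no filter, an effective length offset, only the groups compared, leaving out each library, and the replicate number as a block. The scripts were tested on simulated data.

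The labels call the replicates biological, and the study describes such replicates as separate cell cultures, but neither says that a number marks 1 culture across groups. Deviations from group means over all tested genes correlated with a median of 0.52 in 36 library pairs of the same number. The median was -0.23 in 70 pairs of different numbers. Deviations cancel within a group, so that negative value follows from the positive one and is not separate evidence. The ranges overlapped, at 0.03 to 0.69 for the same number and -0.69 to 0.4 for different numbers. The lowest same-number value was between KO+P and WT, which were not compared. In each pair of groups compared all same-number correlations were at least 0.15. The numbers were therefore taken as pairing the libraries, and the 16 libraries then hold 3 replicate units. All 10 members and Pdcd10 are named, with up to 4 called genes per list and comparison by size of change, the 5 genes nearest in pattern to Ccn2, Ankrd1 and Yap1, and genes whose exons overlap a member.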

Additional observations from a re-analysis of the deposited data

How the results depend on the processing

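Counting error is small for the members, whose means were 1683 counts (Yap1) or more, and the spread between 2 or 3 libraries per group sets the precision. A lone library left in a group by omission was assumed to vary like the other groups. No fold change of a member with an unadjusted p under 0.05 reversed under any alternative run. Causes of the changes listed here were not tested.

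Members called, of 10, differed from the counts reported as follows. The share of all genes called is in brackets, and for DESeq2 it is the share of genes with an adjusted p. With the replicate block the counts were 4 in KO+R against KO (4.98%), 4 in WT+R against WT (4.56%) and 1 for propranolol averaged (4.19%). They were 1 in KO+R against WT (6.91%) and 5 in KO+R against KO+P (9.62%), and no other count moved by over 1.5 times. DESeq2 gave 5 in KO+R against KO (3.19%), 4 in WT+R against WT (3.88%), 2 for propranolol averaged (6.52%) and 5 in KO+R against KO+P (8%). DESeq2 with the replicate block gave 3 in KO against WT (Ankrd1, Ccn1 and Ccn2, 2.78%), 5 in KO+R against KO (7.72%) and 1 in WT+P against WT (1.06%). It also gave 6 in WT+R against WT (6.72%), 2 for propranolol averaged (9.85%), 1 in KO+R against WT (8.92%) and 5 in KO+R against KO+P (12.1%). Without a filter there was 1 in WT+R against WT (0.966%) and 2 for propranolol averaged (1.88%). An effective length offset gave 1 in KO+R against KO (1.02%) and 1 in WT+R against WT (1.04%). Fitting only the groups compared gave 4 in KO+R against KO (2.04%), 0 in WT+R against WT (0.0576%) and 0 in KO+R against KO+P (0.748%). The replicate block without the library labelled WT replicate 1, an alternative chosen after seeing the data, gave 1 in KO against WT (Ccn1, 0.445%) and 3 in WT+R against WT (2.73%). It gave 4 in KO+R against KO (4.77%) and 5 in KO+R against KO+P (9.41%). It also gave 1 in KO+R against WT (5.91%), Wwtr1, in place of the Ccn2 called with the block and all libraries.

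Leaving out 1 library at a time, where no group was left with a lone library, gave 0 to 1 in KO+P against KO and 0 in WT+P against WT. It gave 0 to 3 in KO+R against KO and in WT+R against WT, and 0 to 2 for propranolol averaged. It gave 3 to 5 for rapamycin averaged and 0 to 5 in KO+R against KO+P. The highest counts stood beside 2.24% of all genes in KO+P against KO, at most 1.65% in KO+R against KO and 1.71% in WT+R against WT. For propranolol averaged the share was 6.99%, for rapamycin averaged 3.99% to 5.39%, and in KO+R against KO+P 7.92%. The highest counts for propranolol came without KO+P replicate 3, and the lowest for rapamycin averaged came without WT replicate 2. Of 56 changed counts none reversed a direction.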
